A study of Rattus norvegicus with 40 samples.

Results

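The miRNAs described are those of the anti-Rtl1 part of the imprinted Dlk1-Dio3 locus, miR-127 and miR-136 among them. They were chosen by name as every deposited entry whose stem was miR-127, miR-136, miR-337, miR-341, miR-370, miR-431, miR-433, miR-434, miR-540 or miR-665, with either arm of the hairpin. This gave 17 mature miRNAs from 10 genes, out of 752 in the series, and 15 of the 17 had at least 1 read.

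The plasma came from 20 adult male Sprague-Dawley rats bled from the tail vein on D2 and again on D9, with 1 small RNA library from the pooled aliquots of each rat and day. In 16 rats a traumatic brain injury (TBI) had been made by lateral fluid percussion, and 4 sham-operated rats had the same surgery and craniotomy without the impact. Of the injured rats, 7 later had epilepsy (TBI+) and 9 did not (TBI−), as diagnosed by video-EEG in the sixth month after the injury, so the outcome was not yet known when the blood was drawn. All groups shared the anaesthesia and the craniotomy, and unoperated rats were not among the sequenced animals. The comparisons asked how the plasma level of these miRNAs differed after TBI on each day, between TBI+ and TBI− rats, and between the days.

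The Dlk1-Dio3 locus is imprinted: protein-coding genes such as Dlk1 and Rtl1 are expressed from the paternal copy, and long noncoding transcripts that carry many miRNAs are expressed from the maternal copy. One of these transcripts, anti-Rtl1, runs opposite to Rtl1, so that the miRNAs cut from it pair fully with the Rtl1 mRNA and repress it. The miRNAs of this locus are abundant in the brain, in the embryo and in the placenta.

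In the RefSeq annotation of the GRCr8 assembly, the 10 genes lie on chromosome 6 in the order Mir337, Mir540, Mir665, Mir431, Mir433, Mir127, Mir434, Mir136, Mir341 and Mir370. Mir431, Mir433, Mir127, Mir434 and Mir136 lie inside the interval of Rtl1, 3 genes lie before it and 2 after it. RefSeq held a mature sequence for 15 of the 17 members, miR-127-5p and miR-136-5p being the others. The 6 sequences below belong to the members that changed in at least 1 comparison, written 5′ to 3′ with the seed (bases 2 to 8, which pair with target mRNAs) in capitals.

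rno-miR-540-3p: aGGUCAGAggucgauccugggc

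rno-miR-431: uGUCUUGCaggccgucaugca

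rno-miR-433-3p: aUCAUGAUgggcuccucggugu

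rno-miR-127-3p: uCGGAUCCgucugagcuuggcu

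rno-miR-136-3p: cAUCAUCGucucaaaugagucu

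rno-miR-341: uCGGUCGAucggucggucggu

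These sequences are from RefSeq and lie on the plus strand of GRCr8. miR-127-3p is at chr6:134328510-134328531, miR-136-3p at chr6:134331383-134331404, miR-433-3p at chr6:134327421-134327442 and miR-341 at chr6:134347871-134347891. No seed was shared by 2 members. Of all RefSeq rat miRNAs, only miR-1193-3p had the seed of a member, that of miR-370-5p. The members are therefore neighbours in the genome and not a seed family.

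The library totals, summed over all miRNAs, lay between 404542 and 2562083 reads on D2. On D9 they lay between 140636 and 358202 in the sham-operated rats and between 332161 and 2864893 in the TBI rats. A floor of 3 reads was thus worth 8.38 to 21.3 CPM (counts per 1e+06 reads of the library total) in the D9 sham libraries and at most 9.03 CPM in the D9 TBI libraries. On D2 it was worth 1.17 to 7.42 CPM. Such floors cover counting error only, since PCR copies one molecule into many reads. Markers of blood cells were also read. They were the mature forms of the red blood cell markers miR-451, miR-144 and miR-16 (6 in the file) and of the platelet markers miR-21, miR-126a and miR-223 (6). The leukocyte markers were those of miR-150, miR-146a, miR-142 and miR-155 (8). All of these but miR-126a-5p had reads. This does not check the plasma label, as other kinds of blood sample were not compared.

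miR-127-3p, which represses Rtl1 and is needed for normal placental growth in the mouse, gave most of the reads of the members. It had 16131 reads over the 40 libraries, which was 61.8% of the reads of all 17 members, and ranked 94 of 752 by mean CPM. miR-341 followed with 4621 reads and miR-136-3p with 2492 reads. miR-433-3p, miR-127-5p, miR-370-3p, miR-434-5p, miR-431 and miR-136-5p had between 307 and 526 reads each, and miR-540-3p, miR-665 and miR-540-5p had fewer. At the low end, miR-337-3p had 13 reads in 8 libraries, miR-370-5p 7 reads in 5 libraries and miR-433-5p 2 reads in 2 libraries. The 3p arm had more reads than the 5p arm for Mir127, Mir136, Mir433, Mir370 and Mir540, and for Mir127 it held 97.4% of the reads of the gene. Mir337 and Mir434 are left out, since an arm of each had no reads, as described below.

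**Figure D1:**
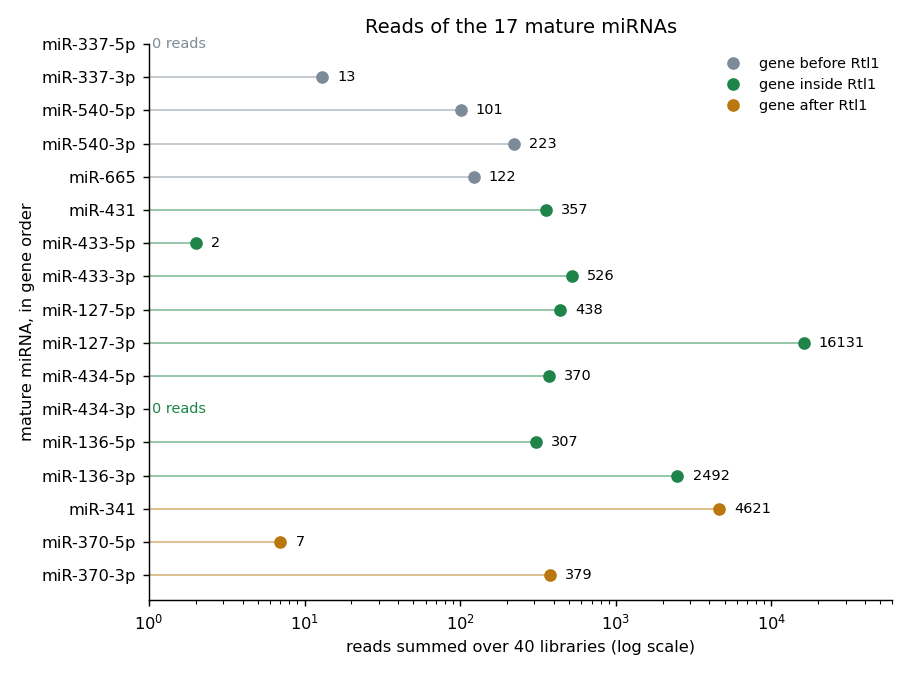
Reads of each of the 17 mature miRNAs, summed over 40 libraries (horizontal log axis), with the miRNAs in the order of their genes and coloured by the place of the gene relative to Rtl1. miR-127-3p had the most reads (16131), and miR-337-5p and miR-434-3p had 0 reads.

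The remaining members, miR-434-3p and miR-337-5p, had 0 reads in all 40 libraries, while the other arm of miR-434 had 370 reads. These are shown next because each is annotated opposite another miRNA. In RefSeq, miR-434-3p lies across from miR-3543 on the minus strand, and the capitals in miR-3543 mark the 22 bases that pair with miR-434-3p, while in the miR-434 arms they mark the seed.

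rno-miR-434-3p: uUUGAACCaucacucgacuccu

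rno-miR-3543: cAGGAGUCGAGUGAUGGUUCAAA

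rno-miR-434-5p: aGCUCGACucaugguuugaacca

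miR-337-5p likewise pairs with 18 bases of miR-3544. Both miR-3543 and miR-3544 also had 0 reads. Over the whole series, a mature miRNA with 1 RefSeq locus that overlapped a mature miRNA of the other strand by at least 10 bases was listed at 0 in 81 of 83 cases (97.6%). Without such an overlap it was listed at 0 in 67 of 575 cases (11.7%). The liver miRNA miR-122-5p and the muscle miRNAs miR-1-3p and miR-133a-3p were among those with an overlap and 0 reads. Whether the counting used the strand is not stated in the sources used here, and the part of the overlap in the missing reads was not tested, so the level of miR-434-3p and miR-337-5p in plasma is not given here.

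On D2, miR-127-3p, miR-136-3p, miR-341 and miR-433-3p were higher in TBI than in sham-operated rats, by 1.06 to 1.47 on the log2 scale. The difference for miR-127-3p left no overlap between the groups. On D9 these 4 miRNAs did not pass the test, and in TBI rats they were lower on D9 than on D2. miR-431 and miR-540-3p moved the other way between the days.

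miR-127-3p was measured at 113, 316, 225 and 304 CPM in the 4 sham-operated rats on D2. In TBI+ rats it lay between 367 and 792 CPM with a median of 542 CPM, and in TBI− rats between 328.9 and 667.4 CPM with a median of 550 CPM. Every TBI rat was above every sham-operated rat on D2, in all 64 pairs. Of the 565 miRNAs tested, 1.24% were higher in TBI without overlap of the groups in this way. The mean was 528 ± 129.2 CPM in TBI (SD, n = 16) and 240 ± 93.8 CPM in sham-operated rats (SD, n = 4), and the log2FC was 1.20 (SE 0.24, adjusted p = 0.00161, quasi-likelihood test of edgeR, Benjamini-Hochberg adjustment over the 565 miRNAs). In bulk plasma, release by more cells and more RNA per cell cannot be told apart.

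miR-136-3p, another miRNA that pairs with Rtl1, was at 20.2, 42.8, 58.1 and 33.0 CPM in the sham-operated rats on D2. In TBI+ rats its level lay between 53.5 and 115 CPM (median 77.1), and in TBI− rats between 34.9 and 101.3 CPM (median 81.3). The groups overlapped slightly, with 14 of 16 TBI rats above the highest sham-operated rat. Its log2FC was 1.09 (SE 0.26, adjusted p = 0.00903 by edgeR).

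miR-341, whose gene lies after Rtl1, had 32.0, 93.2, 75.9 and 61.6 CPM in the sham-operated rats on D2. It lay between 82.4 and 211 CPM in TBI+ rats (median 135.7) and between 56.4 and 170.6 CPM in TBI− rats (median 131). Here 12 of 16 TBI rats exceeded the highest sham-operated rat, and the log2FC was 1.06 (SE 0.28, adjusted p = 0.0191 by edgeR).

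miR-433-3p was rarer, with 1.68, 12.2, 8.93 and 2.25 CPM in the sham-operated rats, from 1, 16, 6 and 3 reads. In TBI+ rats it lay between 11.6 and 21.8 CPM (median 14.9) and in TBI− rats between 6.71 and 25.4 CPM (median 19.6). In this case 13 of 16 TBI rats were above the highest sham-operated rat. The log2FC was 1.47 (SE 0.41, adjusted p = 0.0274 by edgeR). It was not called with all libraries thinned to the smallest of the day (1.33, adjusted p = 0.168) or with the 4 TBI+ rats of the next library numbers alone (1.55, adjusted p = 0.123).

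**Figure D2:**
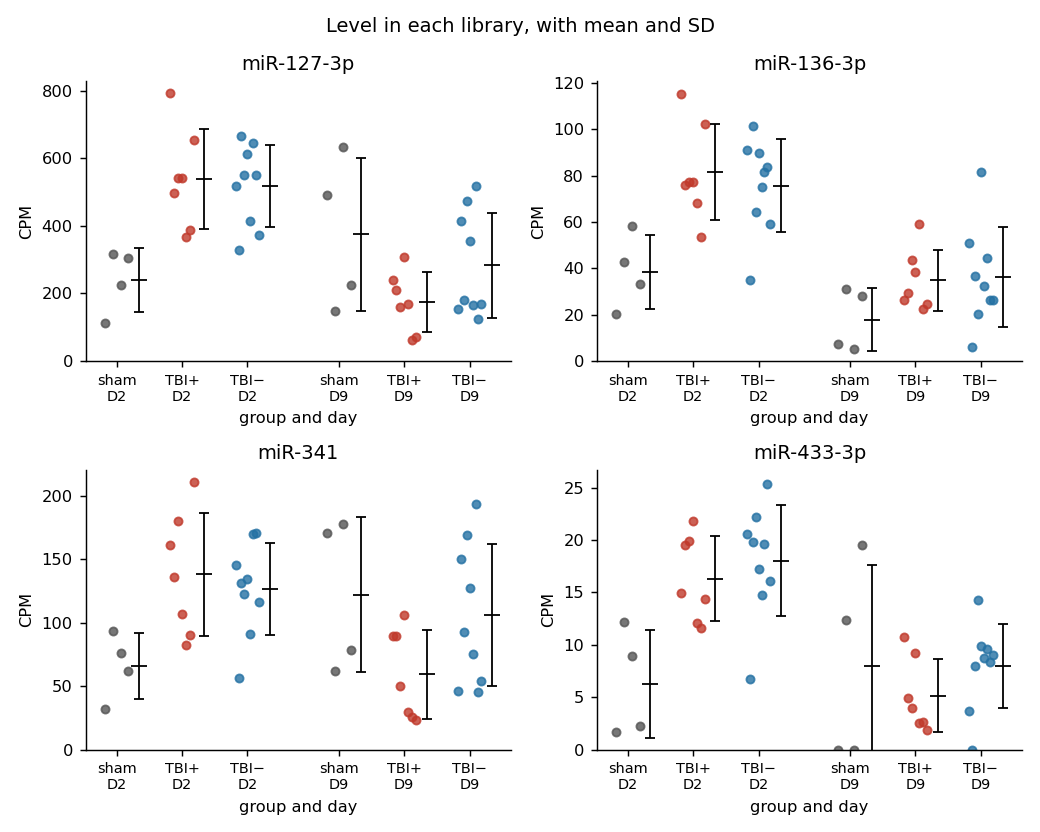
CPM of miR-127-3p, miR-136-3p, miR-341 and miR-433-3p in each library (points), by group and day, with the mean and SD of each group (bars beside the points, drawn down to 0 at most). On D2 every TBI rat was above every sham-operated rat for miR-127-3p, and on D9 the groups overlapped for all 4.

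The 4 called miRNAs are 4 of the 15 members tested, all higher in TBI. Among all 565 miRNAs, 3.19% were called higher (18 miRNAs) and 3.01% lower (17 miRNAs). With scaling to miR-28-3p the calls over all miRNAs split into 17 higher and 6 lower, and the same 4 members stayed called. The median log2FC was 0.99 over the 15 members and 0.09 over all miRNAs. The median of the members takes in rare ones that could only come out higher in TBI. These were miR-337-3p, with 0 sham and 7 TBI reads on D2, and miR-433-5p, with 0 and 1.

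The members that did not pass the test on D2 differed among themselves. miR-127-5p, the minor arm of miR-127, had a mean of 13.1 ± 5.93 CPM in TBI (SD, n = 16) and 5.00 ± 4.45 CPM in sham-operated rats (SD, n = 4), with a log2FC of 1.32 (SE 0.48, adjusted p = 0.117 by edgeR; DESeq2 gave an adjusted p of 0.0288). miR-370-3p had 8.84 ± 3.13 and 5.17 ± 3.54 CPM, with a log2FC of 0.99 (SE 0.42, adjusted p = 0.204 by edgeR). miR-431 and miR-434-5p were no higher in TBI by their means, which were 5.63 ± 3.91 against 7.66 ± 3.28 CPM for miR-431 and 7.16 ± 4.76 against 9.71 ± 7.01 CPM for miR-434-5p. Genes within Rtl1 thus gave miRNAs called higher in TBI on D2 (miR-127-3p, miR-136-3p, miR-433-3p) and miRNAs without a call (miR-431, miR-434-5p). For Mir434 only miR-434-5p could be read, as miR-434-3p had 0 reads. The paper reports that this unread arm was detected by PCR in the same rats, at a higher level in TBI than in sham-operated rats. The missing call for miR-434-5p thus does not show that Mir434 was unchanged. The lower means of miR-431 and miR-434-5p rest on a mean of 6.35 and 9.15 reads per library of D2.

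Sham-operated rat 1 was the lowest of all libraries of D2 for miR-127-3p, miR-136-3p, miR-341 and miR-433-3p. Without it, miR-127-3p was the only member called, and the log2FC of miR-136-3p was 0.86 (adjusted p = 0.0747 by edgeR). Without sham-operated rat 4, miR-127-3p and miR-136-3p were called and miR-433-3p, at 1.13, was not (adjusted p = 0.131 by edgeR). Without sham-operated rat 2 the log2FC of miR-433-3p was 2.18. miR-127-3p was called in each of the 20 fits that left out 1 rat, with a log2FC between 0.95 and 1.41.

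Markers of other cell types moved on the same day, on which 3.19% of all miRNAs were called higher in TBI and 3.01% lower. Of the 12 neuron markers tested (of miR-124, miR-9a, miR-128, miR-129 and miR-138), 5 were higher in TBI on D2, namely both arms of miR-124 and 3 mature miRNAs of miR-129, and none was lower. The summed level of the 13 neuron markers was 5531 to 9301 CPM in sham-operated and 4322 to 16413 CPM in TBI rats, with miR-9a-3p at 0. miR-9a-3p is annotated opposite miR-9b-5p, also at 0 reads, so its count does not show that it was absent from plasma. Among leukocyte markers, 1 of 8 (miR-150-5p) was lower in TBI, with a summed level of 36405 to 68193 CPM in sham-operated and 12921 to 49602 CPM in TBI rats. No red blood cell, platelet, liver or muscle marker was called on D2. The part of these cell types in the results was not tested.

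TBI+ and TBI− rats each differed from the sham-operated rats on D2, and they share those 4 controls. In TBI+ rats, 3 members were called higher (2.30% of all miRNAs were, 13 higher beside 5 lower, or 12 and 8 with scaling to the library total), namely miR-127-3p with a log2FC of 1.20, miR-136-3p with 1.12 and miR-341 with 1.09. miR-433-3p had a log2FC of 1.32 in TBI+ rats (SE 0.45, adjusted p = 0.114 by edgeR), and was called there by DESeq2 (adjusted p = 0.0167) and by edgeR after filterByExpr had removed rare miRNAs (adjusted p = 0.0368). In TBI− rats, 4 members were called higher (3.19% of all miRNAs were), with log2FC values of 1.21 for miR-127-3p, 1.07 for miR-136-3p, 1.03 for miR-341 and 1.57 for miR-433-3p. The call of miR-341 ended with scaling to the library total in TBI+ (adjusted p = 0.0563) and in TBI− rats (0.0642), and with scaling to miR-28-3p in TBI− rats (0.0506). Both sets rested on the sham-operated rats: without sham-operated rat 1, or without rat 4, miR-127-3p was the only member called in either comparison. In TBI+ rats, miR-341 was also lost without sham-operated rat 3, and miR-433-3p was gained without sham-operated rat 2 (adjusted p = 0.0249 by edgeR).

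Between TBI+ and TBI− rats no member was called on D2 by edgeR, where 0 of 565 miRNAs were called (0%) and 38 had an unadjusted p below 0.05, none of them a member. DESeq2 also called 0, with 26 below 0.05 unadjusted. The difference of TBI+ from TBI− was −0.01 (SE 0.20) for miR-127-3p, 0.05 (SE 0.22) for miR-136-3p, 0.06 (SE 0.23) for miR-341 and −0.25 (SE 0.32) for miR-433-3p, all as log2FC. These values do not show that the TBI+ and TBI− rats were alike.

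On D9 no member was called between TBI and sham-operated rats by edgeR or DESeq2, and none had an unadjusted p below 0.05 in either. Over all miRNAs of that day 3.51% were called by edgeR (19 miRNAs, 6 higher and 13 lower; with scaling to miR-28-3p, 2 higher and 27 lower), and DESeq2 called 17. Without sham-operated rat 2, edgeR called 0 miRNAs on D9. No member left the groups without overlap, as 0.370% of all miRNAs did with TBI higher and 0.185% with TBI lower. The sham libraries of D9 were shallow, and some of their values rest on few reads.

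miR-127-3p had 491, 148, 633 and 226 CPM in the sham-operated rats on D9, from 24 reads in rat 2 and at least 69 in the others. It lay between 60.5 and 308 CPM in TBI+ rats (median 170) and between 124.6 and 517 CPM in TBI− rats (median 179.1). No TBI rat was above the highest sham-operated rat, and the log2FC was −0.57 (SE 0.41, adjusted p = 0.576 by edgeR). miR-341 had 170.7, 61.7, 178.2 and 78.2 CPM in the sham-operated rats, and a log2FC of −0.42 (SE 0.45, adjusted p = 0.763 by edgeR).

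miR-136-3p went the other way, with a log2FC of 1.02 (SE 0.51, adjusted p = 0.327 by edgeR). The sham-operated rats had 7.11, 30.8, 4.95 and 27.9 CPM, from 1, 5, 1 and 10 reads. TBI+ rats lay between 22.5 and 59.2 CPM (median 29.4) and TBI− rats between 6.02 and 81.5 CPM (median 32.4). The sham-operated rats 1 and 3, which were the highest of that group for miR-127-3p and miR-341, were thus the lowest for miR-136-3p, with 1 read each. They also had 0 reads of miR-433-3p and of miR-431, while rats 2 and 4 had 2 and 7 reads of miR-433-3p and 1 and 4 of miR-431.

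miR-431, which also pairs with Rtl1, had a log2FC of 1.34 on D9 (SE 0.79, adjusted p = 0.447 by edgeR), which was 0.94 without sham-operated rat 3 and 2.73 without sham-operated rat 4. Its mean was 13.4 ± 8.40 CPM in TBI (SD, n = 16) and 4.33 ± 5.40 CPM in sham-operated rats (SD, n = 4). With all libraries thinned to the smallest of the day, its log2FC was 0.44 and that of miR-136-3p 0.48, and neither was called. The other members had D9 means of at most 11.0 CPM in TBI rats and at most 12.7 CPM in sham-operated rats.

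In TBI+ rats alone no member was called on D9 by edgeR or DESeq2, while edgeR called 1.85% of all miRNAs. By DESeq2, miR-127-3p and miR-341 were below an unadjusted p of 0.05. miR-127-3p had a log2FC of −0.99 there (SE 0.44, unadjusted p = 0.0321, adjusted p = 0.264 by edgeR). In TBI− rats, where 4.81% of all miRNAs were called (7 higher and 19 lower, or 1 and 20 with scaling to miR-28-3p), its log2FC was −0.31 (SE 0.43), and no member was called. The direct difference of TBI+ from TBI− on D9 was −0.68 (SE 0.36, adjusted p = 0.802 by edgeR) for miR-127-3p and −0.82 (SE 0.38, unadjusted p = 0.0368, adjusted p = 0.802) for miR-341. miR-540-5p, named here after its values were seen, had an unadjusted p of 0.03 from 6 reads in TBI+ and 39 reads in TBI− rats. For miR-136-3p the difference was −0.03 (SE 0.35). Neither edgeR nor DESeq2 called any miRNA between these groups on D9 (0%), with 22 and 12 below an unadjusted p of 0.05.

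**Figure D3:**
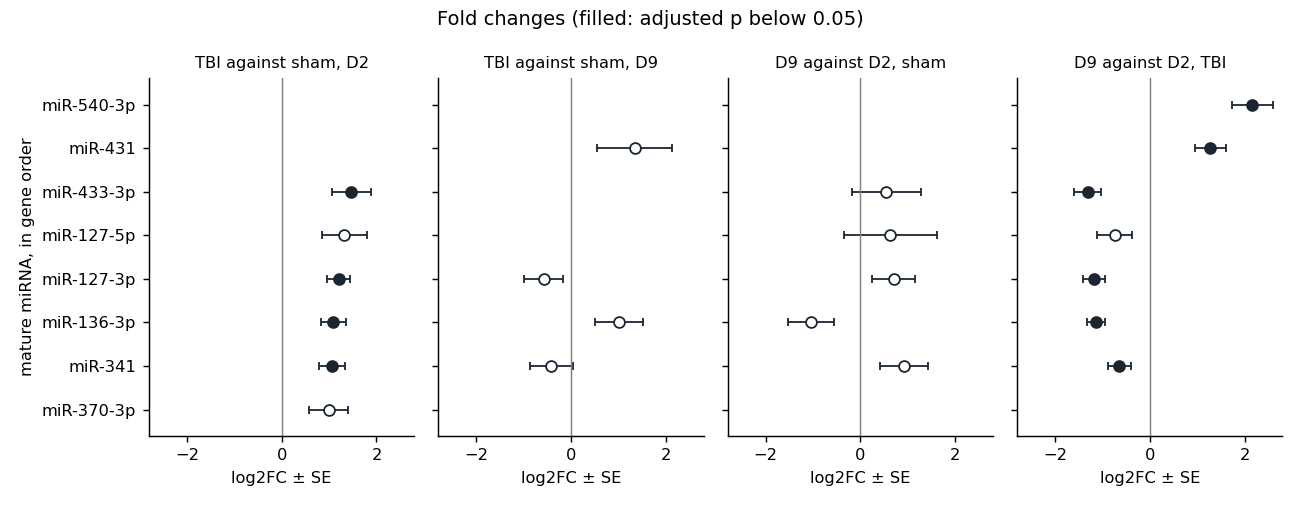
log2FC with SE from edgeR for members with a mean of at least 10 reads or a call, in gene order from top to bottom, for TBI against sham on D2 and D9 and for D9 against D2 in sham-operated and TBI rats (filled points, adjusted p below 0.05). On D2 all points drawn lie to the right of 0, while between the days in TBI rats miR-540-3p and miR-431 lie to the right and the others to the left. Members below the read limit are not drawn, and on D2 they lay on both sides of 0. Examples are miR-434-5p with a log2FC of −0.52 and miR-136-5p with 0.42. Most D2 libraries were from TBI rats, so the limit favoured members that were higher in TBI.

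Each rat was bled on both days, so the counts of rats that rose or fell are within rats. The fit behind the calls and p-values had no term for the rat. With the rat as a block, 7 members were called, and 162 of all miRNAs. In the 16 TBI rats, 6 members changed between D2 and D9: 4 fell (18.1% of all 581 miRNAs did) and 2 rose (13.9% of all miRNAs did). These shares of all miRNAs are high, and the members are to be read against them. The 4 that fell were the 4 that had been higher than in sham-operated rats on D2, a comparison that uses the same D2 libraries.

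miR-136-3p fell in 16 of 16 TBI rats, from a mean of 78.2 ± 19.99 to 35.5 ± 17.8 CPM (SD, n = 16), with a log2FC of −1.13 (SE 0.20, adjusted p = 8.1e-06 by edgeR). miR-433-3p also fell in 16 of 16, from 17.3 ± 4.75 to 6.72 ± 3.94 CPM, with a log2FC of −1.30 (SE 0.28). miR-127-3p fell in 15 of 16, from 528 ± 129.2 to 235 ± 138.4 CPM, with a log2FC of −1.17 (SE 0.22). The exception was TBI− rat 2, which rose from 328.9 to 415 CPM. miR-341 fell least, in 13 of 16 TBI rats, with a log2FC of −0.64 (SE 0.24, adjusted p = 0.0308 by edgeR).

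miR-127-5p had a log2FC of −0.74 (SE 0.37, adjusted p = 0.122 by edgeR), and passed the test with the rat as a block (−0.94, SE 0.32, adjusted p = 0.0138).

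The rises were seen in rarer members. miR-540-3p, from a gene before Rtl1, was higher on D9 in 14 of 16 TBI rats, with means of 1.86 ± 1.85 CPM on D2 and 9.76 ± 6.36 CPM on D9 and a log2FC of 2.16 (SE 0.43). It had 40 reads in the 16 TBI libraries of D2 and 162 in those of D9. In sham-operated rats, where it was higher on D9 in 2 of 4 and not called, its means were 2.81 ± 2.61 and 9.99 ± 12.3 CPM, from 9 and 12 reads, with a log2FC of 2.19 (SE 0.96, adjusted p = 0.194 by edgeR). miR-431 was also higher in 14 of 16, with means of 5.63 ± 3.91 and 13.4 ± 8.40 CPM and a log2FC of 1.28 (SE 0.33, adjusted p = 0.00207 by edgeR). miR-431 had 100 reads in the 16 TBI libraries of D2 and 225 in those of D9. In sham-operated rats it was lower on D9 in 3 of 4, from 27 and 5 reads, and not called. Mir431 and Mir433 are neighbours in the annotation, and their products miR-431 and miR-433-3p moved in opposite directions in TBI rats.

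**Figure D4:**
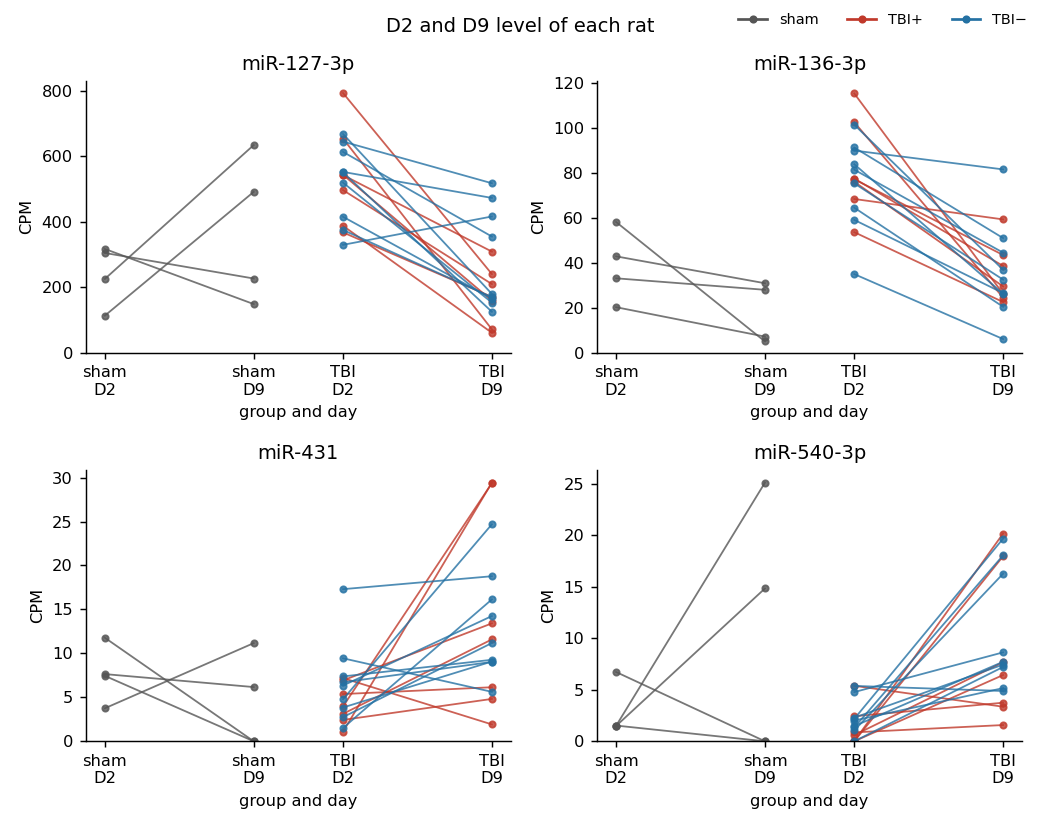
CPM of miR-127-3p, miR-136-3p, miR-431 and miR-540-3p on D2 and D9, with 1 line per rat (4 sham-operated, 7 TBI+ and 9 TBI− rats). miR-136-3p was lower on D9 in all 20 rats, whereas miR-127-3p rose in 2 of 4 sham-operated rats and fell in 15 of 16 TBI rats.

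No member was called between the days in the 4 sham-operated rats, where 6.71% of all miRNAs were called by edgeR (17 higher and 22 lower on D9, or 31 and 0 with scaling to miR-28-3p) and 47 miRNAs by DESeq2. An unadjusted p below 0.05 was found for miR-136-3p and miR-540-3p by edgeR and for miR-127-3p, miR-341 and miR-540-3p by DESeq2. miR-136-3p fell in 4 of 4 sham-operated rats (log2FC −1.04, SE 0.49, adjusted p = 0.253 by edgeR). miR-127-3p was higher on D9 in 2 of 4 (log2FC 0.70, SE 0.45, adjusted p = 0.453 by edgeR), and miR-341 in 3 of 4 (log2FC 0.92, SE 0.50, adjusted p = 0.333 by edgeR).

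The test of whether the difference of TBI from sham itself changed between the days gave 1 call among the members, where 3.79% of all 581 miRNAs were called and 1.89% were called in the same direction (11 of each direction, or 4 higher and 18 lower with scaling to miR-28-3p). This was miR-127-3p, whose log2FC of TBI against sham was lower on D9 than on D2 by a difference of −1.87 (SE 0.51, adjusted p = 0.0332 by edgeR). The adjusted p was 0.272 without sham-operated rat 1 and 0.222 without sham-operated rat 3, the rats whose D9 level was highest. With the rat as a block the adjusted p for miR-127-3p was 0.00769.

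For miR-341 this change was −1.57 (SE 0.56, adjusted p = 0.105 by edgeR, 0.0369 with the rat as a block and 0.032 by DESeq2). That of miR-433-3p was −1.85 (SE 0.80, adjusted p = 0.225 by edgeR and 0.0484 by DESeq2), and −0.36 without sham-operated rat 4. For miR-136-3p the change was −0.09 (SE 0.55, adjusted p = 1.00), with a log2FC between the days of −1.04 in sham-operated and −1.13 in TBI rats. Whether miR-136-3p differed from miR-127-3p in this respect was not tested.

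The arms of the hairpins were also followed. In TBI rats the 3p arm held 97.5% of the miR-127 reads on D2 and 96.9% on D9. For miR-136 it held 93.0% on D2 (1629 reads of the 3p arm and 123 of the 5p arm) and 81.7% on D9 (695 reads of the 3p arm). The share of the 3p arm of miR-136 was lower on D9 in 12 of 16 TBI rats and in 3 of 4 sham-operated rats. miR-136-5p, named here after its values were seen, had 6.42 ± 4.10 CPM on D2 and 9.91 ± 7.47 CPM on D9 in TBI rats, with a log2FC of 0.57 (SE 0.37, adjusted p = 0.249 by edgeR). For miR-540 the 3p arm held 44.0% of the reads in TBI rats on D2 (40 of the 3p arm and 51 of the 5p arm) and 78.3% on D9 (162 and 45 reads). The difference between the arms was not tested.

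Cell markers moved between the days in TBI rats as well, and are to be read against the 13.9% of all miRNAs that rose and the 18.1% that fell. All 6 red blood cell markers tested rose, with a summed level of 10802 to 48308 CPM on D2 and 17961 to 74405 CPM on D9, and none was at 0. Platelet markers rose in 3 of 5 cases, from a summed level of 9318 to 15823 CPM on D2 to 11192 to 23874 CPM on D9. Leukocyte markers rose in 3 of 8 cases and liver markers in 1 of 5 (miR-194-5p), with miR-122-5p at 0. In sham-operated rats miR-194-5p was also called higher on D9 than on D2. Muscle markers fell in 5 of 9 cases, with a summed level of 286 to 1813 CPM on D2 and 44.4 to 226 CPM on D9, and miR-1-3p and miR-133a-3p at 0. Of the 12 neuron markers, the same 5 that had been higher in TBI on D2 fell, with a summed level of 2921 to 10798 CPM on D9. The part of these cells in the changes of the members was not tested.

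Across the 40 libraries, the members did not all vary together. The level of miR-127-3p was most like that of miR-341, with a Spearman's rho of 0.88 over 40 libraries, 0.82 over the 20 libraries of D2 and 0.94 over those of D9. With miR-136-3p, miR-127-3p had a rho of 0.89 on D2 and −0.18 on D9. The D9 value includes the 4 sham libraries, each with between 1 and 10 reads of miR-136-3p. These values describe libraries that share rats, groups and scaling, and they rank log2(CPM + 1) with no test. The rho with the library total was −0.13 for miR-127-3p, −0.18 for miR-341 and 0.22 for miR-136-3p.

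**Figure D5:**
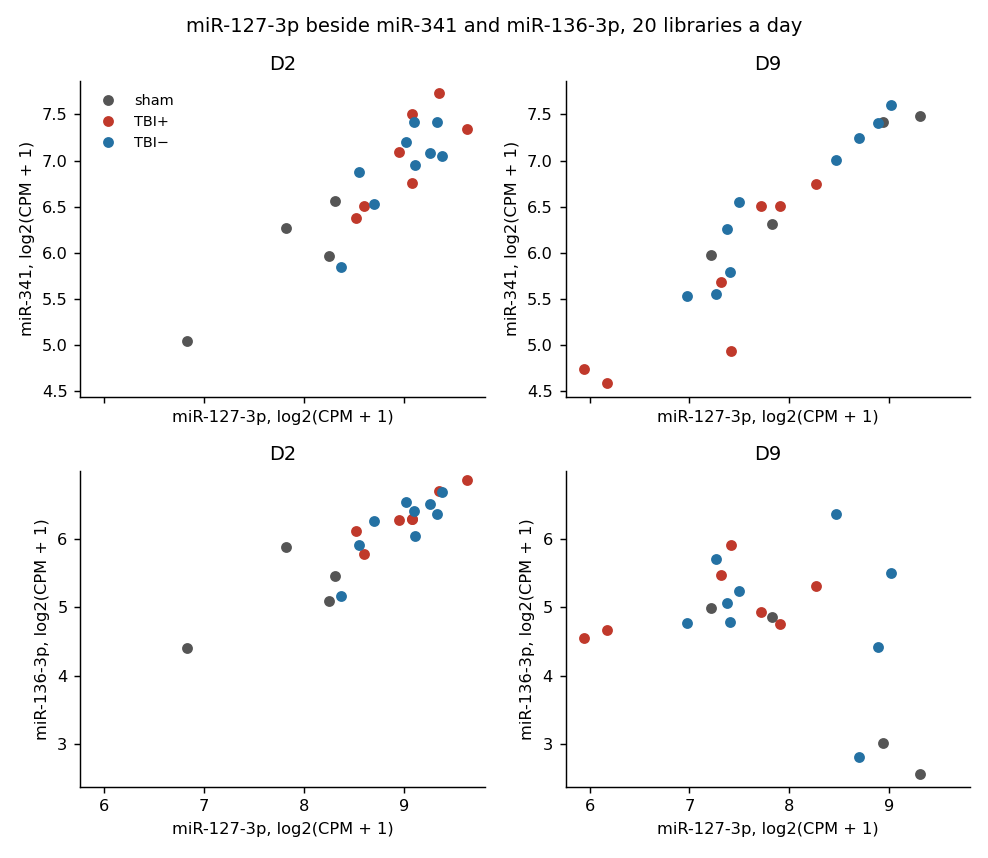
miR-127-3p (horizontal) beside miR-341 (upper panels) and miR-136-3p (lower panels), as log2(CPM + 1) in the 20 libraries of D2 and of D9, coloured by group. miR-341 rose with miR-127-3p on both days (rho 0.82 and 0.94), and miR-136-3p on D2 but not on D9 (rho 0.89 and −0.18). The D9 sham libraries held between 1 and 10 reads of miR-136-3p.

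After miR-341, the miRNAs most like miR-127-3p over 40 libraries were miR-328b-3p (rho 0.79) and miR-410-3p (rho 0.79), the latter from the far end of the same locus. Those most like miR-136-3p were miR-124-5p (0.80), miR-107-3p (0.79) and miR-323-3p (0.78). For miR-433-3p they were miR-124-3p (0.75), miR-212-3p (0.74) and miR-136-3p (0.72). For miR-127-5p they were its own other arm (0.77), miR-410-3p (0.76) and miR-381-3p (0.74), and for miR-341 miR-127-3p (0.88), miR-127-5p (0.69) and miR-410-3p (0.67). On D9 alone, rho was 0.38 for miR-136-3p with miR-124-5p and 0.33 for miR-433-3p with miR-124-3p. Of the neuronal miRNAs in these lists, miR-124-5p stood beside miR-136-3p, and miR-124-3p and miR-212-3p beside miR-433-3p. Only the 3 highest of 274 ranked miRNAs are listed for each member. Absence of a miRNA from the list of miR-127-3p thus does not mean a low rho.

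Elsewhere in the Dlk1-Dio3 locus, 74 other mature miRNAs were in the file and 51 were tested on D2. Of these, 5 were higher in TBI (9.80%, beside 3.19% of all miRNAs) and none was lower: miR-410-3p (log2FC 1.41), miR-323-3p (1.5), miR-668 (1.92), miR-382-5p and miR-380-3p. The last of these had 3 reads in all in the 4 sham libraries of D2. The median log2FC of the 51 was 1.09, beside 0.99 for the members and 0.09 for all miRNAs. These medians also take in miRNAs of few reads. On D9 none of 48 was higher and 1 was lower, miR-494-3p. It had 33 reads in the 4 sham libraries of D9, of which 1 library held 32. Its mean in TBI rats was 3.06 CPM on D2 and 3.11 CPM on D9. Between the days in TBI rats 10 of 55 fell (18.2%, beside 18.1% of all miRNAs) and 2 rose (3.64%, beside 13.9%). Of 30 neuron-enriched miRNAs tested on D2, 7 were higher in TBI (23.3%) and none was lower, and 11 of 30 fell between the days in TBI rats (36.7%).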

How the data were processed

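Small RNA from tail-vein plasma was sequenced in 40 libraries (20 rats on D2 and D9). The authors trimmed the reads with Trimmomatic 0.36 after FastQC 11.8, dropped reads shorter than 17 nt, aligned them with Bowtie2 to the Rno6 genome and counted mature miRNAs of miRBase 22 with featureCounts, and deposited the raw counts. Whether strand was used is not given in the sources used here. No column of the deposited table was unused (0), and no 2 libraries were identical. Counts were scaled to 1e+06 reads of each library (CPM), and the level of 3 reads in each library served as the floor of detection.

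Each day was fitted separately with edgeR 4.0.16 in R 4.3.3 (TMM, quasi-likelihood test, Benjamini-Hochberg adjustment over all miRNAs with a read on that day, called at an adjusted p below 0.05). The comparisons between the days, and that of the TBI effect between the days, were fitted over all 40 libraries. The main fit of these had no term for the rat, and the fit with the rat as a block was an alternative. Sham-operated rats were shared by all comparisons with TBI rats. Within a day, the p-values rest on the spread between rats. Between the days, those of the main fit rest on the spread between libraries, with both libraries of each rat counted. The test was checked on simulated counts. DESeq2 1.42.0, other scalings (RLE, library total, miR-28-3p), filterByExpr, thinning to the smallest library (404542 reads on D2 and 140636 on D9), a hemolysis covariate, the next library numbers, a replicate block and leaving out each rat were the alternatives. The next library numbers compared the 4 sham-operated rats only with the 4 TBI+ rats whose library numbers follow theirs.

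A miRNA of the locus was given a fold change where its mean was at least 10 reads over the libraries of the comparison or where it was called, and the others by reads and CPM. Statistics of miR-136-5p between the days, of miR-540-3p between the days in sham-operated rats and of miR-540-5p on D9 are exceptions. The members, the other Dlk1-Dio3 and neuron-enriched lists and the markers of red blood cells, platelets, leukocytes, liver, muscle and neurons were chosen with earlier results of these data known. D2 and D9 libraries are paired by rat, as the same animals were bled on both days. Deviations of a rat's 2 libraries from their group means correlated with r between −0.30 and 0.39. Sequences are from RefSeq (GRCr8), a different assembly from that of the counts, and were matched by name. Spearman's rho used log2(CPM + 1). Descriptions and plots were made with matplotlib 3.10.9, scipy 1.17.1, numpy 2.4.6 and pandas 2.3.3 under Python 3.11.15.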

Additional observations from a re-analysis of the deposited data

Results flagged for a closer look

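In TBI+ rats on D2, rat 1 stood apart from the other 6 for 2 members. Its miR-127-5p level was 26.3 CPM, while the others lay between 5.48 and 13.9 CPM. Its miR-370-3p level was 16.7 CPM, while the others lay between 7.94 and 9.88 CPM. These were 2 of 30 groups tested for a distant sample, where chance gives about 1 in 20. The difference of TBI from sham-operated rats in miR-127-3p differed between the days by −1.87 on the log2 scale (SE 0.51, adjusted p = 0.0332 by edgeR), and this call was lost without sham-operated rat 1 or 3 (adjusted p = 0.272 and 0.222).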

How the results depend on the processing

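Among the fold changes of members, 358 of those with 1 rat left out and 343 of those under the other alternatives kept direction and side of the threshold, while 18 and 7 lost a call, 1 and 8 gained one, and 11 and 14 changed sign. The number of all miRNAs called in TBI against sham on D2 was 23 with scaling to miR-28-3p, and in TBI+ rats 34 by DESeq2. On D9 it was 29 with miR-28-3p and 10 with the next library numbers, and in TBI+ rats 16 with RLE and 3 with filterByExpr. For the change of the TBI effect between days, 2 members were called with miR-28-3p (miR-127-3p and miR-341) and 3 by DESeq2 (these and miR-433-3p).

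Within a day, rats of different groups share only a number, and correlations of same-numbered rats did not show pairing, with r between −0.46 and 0.35. With the replicate block, 2 members were called in TBI− against sham on D2, 3 of all miRNAs between TBI+ and TBI− on D2, and 7, 4 and 6 of all miRNAs in TBI, TBI+ and TBI− against sham on D9. With the rat as the block, 2 members were called for the change of the TBI effect between days. In TBI− against sham on D9 the block turned miR-127-3p to 0.063 and miR-341 to 0.36, and in TBI+ against TBI− on D9 it turned miR-431 to −0.33.

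Leaving out 1 rat gave 21 to 37 calls among all miRNAs and 1 to 4 among members for TBI against sham on D2. The ranges were 11 to 18 and 1 to 4 in TBI+ rats and 23 to 29 and 1 to 4 in TBI− rats. On D9 all miRNAs gave 0 to 26 calls for TBI, 0 to 15 for TBI+ and 0 to 21 for TBI−. Between the days there were 2 to 46 calls in sham-operated rats, of which 14 without rat 3, and the change of the TBI effect gave 8 to 12 among all miRNAs and 0 to 1 among members.

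Signs changed for these members. For TBI+ against TBI− on D2, miR-127-3p was 0.017 with RLE, 0.018 by DESeq2, 0.061 with the library total, 0.091 with miR-28-3p and −0.0075 to 0.040 with 1 sham-operated rat left out, and miR-127-5p was 0.0036 with the library total and 0.018 with miR-28-3p. For TBI+ against TBI− on D9, miR-431 was −0.013 with RLE, −0.024 with the library total, −0.017 with miR-28-3p, −0.067 with filterByExpr and −0.014 to 0.0027 with 1 sham-operated rat left out, and miR-136-3p was 0.075 with miR-28-3p. In TBI− against sham on D9, leaving out 1 sham-operated rat gave −0.77 to 0.018 for miR-127-3p and −0.50 to 0.12 for miR-341. Between the days in sham-operated rats it gave −1.20 to 1.76 for miR-127-5p and −0.94 to 1.09 for miR-433-3p. For the change of the TBI effect it gave −2.50 to 0.46 for miR-127-5p and −0.62 to 0.34 for miR-136-3p. The cause was not tested.

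The median log2FC of all miRNAs in TBI against sham on D9 was 0.30, and it was 0.09 with miR-28-3p, −0.04 with filterByExpr, −0.06 after thinning and −0.38 by DESeq2. For the change of the TBI effect it was 0.09, −0.19 with miR-28-3p and −0.61 by DESeq2. With the hemolysis covariate (the log2 ratio of miR-451-5p to miR-23a-3p), the same 4 members were called on D2. The D9 sham libraries, with at most 358202 reads, limit every comparison that uses them.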
